A study of Capra hircus with 9 samples.

Results

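Of the 1359 mature miRNAs listed for the mammary gland of Laoshan dairy goats, 4 belonged to the miR-193/miR-365 clusters, namely chi-miR-193a, chi-miR-193b-3p, chi-miR-193b-5p and chi-miR-365-3p. They were taken by name, as every listed miRNA whose name starts with chi-miR-193a, chi-miR-193b or chi-miR-365, whichever arm of the hairpin it comes from. In mammals, miR-193b and miR-193a each lie near a copy of the miR-365 gene, and the mature miR-365 made from both copies is the same molecule. miR-193a-3p and miR-193b-3p share their seed, the stretch of a miRNA that pairs with its targets, and differ in a few bases elsewhere. The cluster of miR-193b and miR-365 is known for its part in the differentiation of brown fat. In the mouse mammary epithelium, the miR-193b locus is a target of STAT5, the transcription factor that carries the prolactin signal, and miR-193b restrains mammary progenitor cells.

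The tissue came from 9 healthy goats of 1 farm, all of the third parity and on average 4 years old, with 3 goats in late lactation (LL, day 240 postpartum), 3 in the dry period (DP, day 300 postpartum) and 3 in late gestation (LG, day 140 after mating). No goat was treated or genetically modified, and each gave 1 small RNA library of whole mammary tissue, which holds epithelium, stroma, vessels, blood and, where the sample reaches it, muscle. The deposited counts of a library summed to between 13672653 and 34378995, and a miRNA with 0 counts could have had up to 0.0873 to 0.219 CPM, counts scaled to a library of standard size, the level of 3 counts, which covers counting error only. Counts were scaled with edgeR's TMM method. All 4 members passed the filter of at least 0.5 CPM in at least 3 libraries and were tested among 696 miRNAs with edgeR's quasi-likelihood test. A miRNA was called differentially expressed at an adjusted p-value (Benjamini-Hochberg, over the 696) under 0.05 with a log2 fold change (log2FC) beyond 1 in either direction. Levels are TMM-scaled CPM with the SD over 3 goats, and each log2FC has its standard error (SE).

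The reference annotation of the goat genome (ARS1.2) gave a position for 2 of the genes. MIR193A lies on chromosome 25 from 13114167 to 13114255, inside no other gene, 53.5 kb from MKL2 on one side and 112 kb from PARN on the other. MIR365 lies on chromosome 19 from 18118040 to 18118150, also inside no other gene, 11.4 kb from the gene LOC108638254 and 39.1 kb from RAB11FIP4. The nearest annotated miRNA gene was MIR3432 for MIR193A, 20574 kb away, and MIR2332 for MIR365, 231 kb away. No miR-193 gene was thus annotated beside a miR-365 gene. In the human genome, MIR193B lies between MKL2 and PARN, whereas MIR193A lies beside RAB11FIP4. The goat gene named MIR193A was thus annotated between the neighbours of human MIR193B, and the goat MIR365 beside the neighbour of human MIR193A. Whether the goat name follows the mature sequence or the locus was not tested.

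chi-miR-193a and chi-miR-193b-3p had nearly equal counts in every library. The counts of chi-miR-193a were 63, 105 and 182 in LL, 111, 249 and 635 in DP, and 138, 108 and 206 in LG. For chi-miR-193b-3p they were 65, 107 and 183 in LL, 111, 256 and 661 in DP, and 142, 114 and 208 in LG. chi-miR-193b-3p had the higher count in 8 libraries, and in DP replicate 1 the counts were equal. The difference was at most 26 counts, in DP replicate 3, and at most 5.26% of the larger count, in LG replicate 2. Summed over the 9 libraries, chi-miR-193a had 1797 counts and chi-miR-193b-3p 1847, a difference of 50 counts (2.71%).

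Such a pair was uncommon in the table. Of the 483 miRNAs with at least 10 counts in every library, 36 (7.45%) had counts within 10% of those of another one in all 9 libraries, in 27 pairs, and 9 of the 36 were known miRNAs. Among these 483, no other miRNA came this close to chi-miR-193a, chi-miR-193b-3p or chi-miR-365-3p. chi-miR-193b-5p, with 9 counts in LL replicate 1, was not part of this comparison. chi-miR-193a and chi-miR-193b-3p are therefore uncertain as separate miRNAs, and they are treated below as 1 measurement of the miR-193 3p level, with chi-miR-193b-3p described in full. Whether the same reads were counted on both was not tested.

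**Figure D1:**
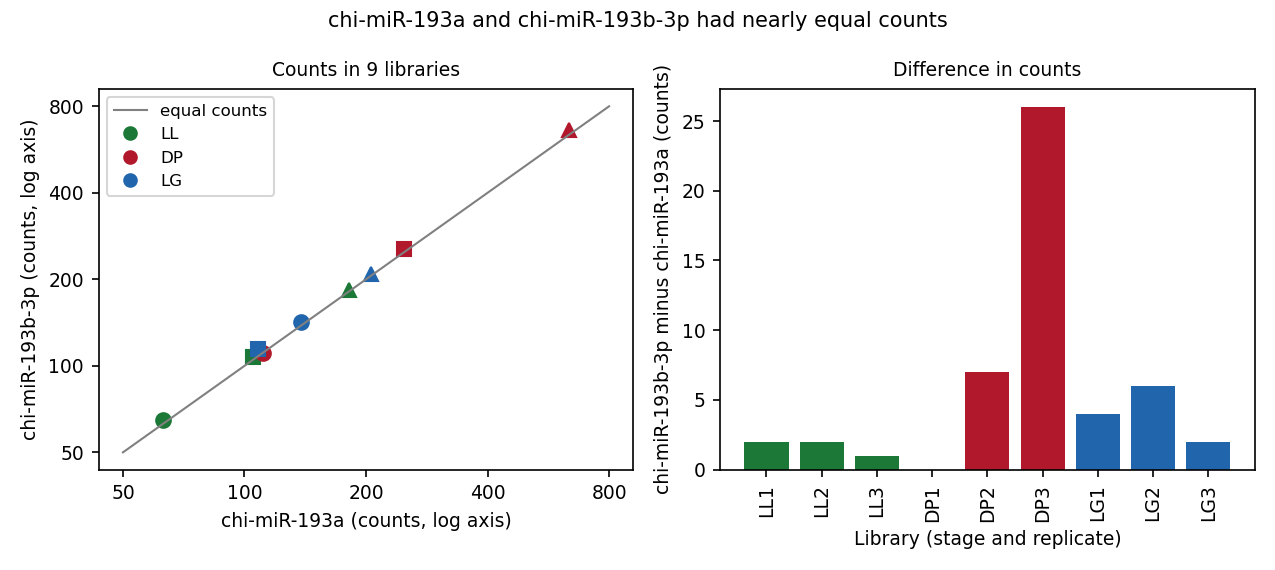
Counts of chi-miR-193a and chi-miR-193b-3p in the 9 libraries (left, both axes logarithmic, with a line at equal counts; circles, squares and triangles are replicates 1, 2 and 3) and the count of chi-miR-193b-3p minus that of chi-miR-193a in each library (right). All libraries lie on or next to the line, from 63 and 65 counts in LL replicate 1 to 635 and 661 in DP replicate 3, and the largest difference is 26 counts.

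In DP vs. LG, 3 of the 4 members were called, all higher in DP, where 31.5% of the 696 tested miRNAs were called in either direction, 21.6% higher and 9.91% lower in DP. Since chi-miR-193a and chi-miR-193b-3p count as 1 measurement, these were the miR-193 3p level and its opposite arm, chi-miR-193b-5p. In DP vs. LL only chi-miR-193b-5p was called, higher in DP, against a background of 26.7% in either direction, 15.1% higher and 11.6% lower in DP. In LL vs. LG none of the 4 was called with edgeR, DESeq2 or limma-voom (of all 696, edgeR called 12.8%, with 8.91% higher and 3.88% lower in LL), and 1 of them had an unadjusted p under 0.05 with edgeR and with limma-voom and 0 with DESeq2. chi-miR-365-3p was not called in any comparison.

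The level of chi-miR-193b-3p, named for the 3p arm of the miR-193b hairpin, was 5.10, 7.07 and 9.88 CPM in LL, 6.97, 11.8 and 28.8 CPM in DP, and 4.87, 4.50 and 4.71 CPM in LG. Every DP library lay above every LG library, while DP replicate 1 lay below 2 of the LL libraries. DP replicate 3 stood far above the others of its stage, and the LG libraries lay close together. The means were 15.9 ± 11.5 CPM in DP, 7.35 ± 2.40 CPM in LL and 4.69 ± 0.185 CPM in LG. The coefficient of variation was 72.5% in DP and 3.95% in LG, where the median of the 696 tested miRNAs was 39.1% and 20.2%.

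For chi-miR-193b-3p, the log2FC in DP vs. LG was 1.76 (SE 0.49, adjusted p = 0.0168), and that of chi-miR-193a was 1.75 (SE 0.48, adjusted p = 0.0164). This call rested on DP replicate 3. Without that library the log2FCs fell to 0.79 (adjusted p = 0.135) and 0.80 (adjusted p = 0.127). The call was also lost without any single LG library, though the size stayed between 1.63 and 1.73, with adjusted p-values of 0.0756 to 0.0921. Calls over all miRNAs fell in these fits too, from 219 of 696 to 161 of 691, 164 of 684 and 152 of 685. Without a filter on low counts the log2FC was 1.42 for both (adjusted p = 0.0528 for chi-miR-193a and 0.0542 for chi-miR-193b-3p).

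In DP vs. LL, the log2FC of chi-miR-193b-3p was 1.11 (SE 0.48, 95% interval 0.05 to 2.17, adjusted p = 0.108) and that of chi-miR-193a 1.09 (SE 0.48, adjusted p = 0.112). They were called in 2 alternatives, with libraries scaled by their size only (1.45 and 1.43, adjusted p = 0.0395 and 0.0405) and without DP replicate 1 (1.35 and 1.32, adjusted p = 0.0270 and 0.0303). Without DP replicate 3 both values dropped to 0.34 (adjusted p = 0.518 and 0.522). In LL vs. LG, the value for chi-miR-193b-3p was 0.65 (SE 0.48, 95% interval −0.41 to 1.71, adjusted p = 0.389), although the LL and LG libraries did not overlap, as was the case for 48.4% of the tested miRNAs.

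chi-miR-193b-5p, the opposite arm of the miR-193b hairpin, was the rarest member and the one with the largest difference between stages. Its counts were 9, 10 and 21 in LL, 33, 43 and 69 in DP, and 13, 12 and 17 in LG. A count of 9 has an exact 95% Poisson interval of 4.12 to 17.1, for counting error only. As levels, these were 0.706, 0.661 and 1.13 CPM in LL, 2.07, 1.98 and 3.01 CPM in DP, and 0.446, 0.474 and 0.385 CPM in LG. With TMM scaling the 3 stages did not overlap in any comparison, with DP highest and LG lowest, whereas by library size only LL replicate 1 (0.526 CPM) lay below LG replicate 2 (0.563 CPM). Libraries that do not overlap were found for 44.7% of the tested miRNAs in DP vs. LG and 41.2% in DP vs. LL.

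The mean of chi-miR-193b-5p was 2.35 ± 0.571 CPM in DP, 0.833 ± 0.261 CPM in LL and 0.435 ± 0.0453 CPM in LG. Its log2FC was 2.43 (SE 0.39, 95% interval 1.57 to 3.29, adjusted p = 0.000976) between DP and LG. This call held in all 19 alternatives that tested it, with values from 1.98, without DP replicate 3, to 2.45, without DP replicate 2. In DP vs. LL the log2FC was 1.48 (SE 0.38, adjusted p = 0.0146), and 17 of 19 alternatives called it. The exceptions were the fits without LL replicate 1 (adjusted p = 0.0601, with nearly the same log2FC) and without LL replicate 2 (1.37, adjusted p = 0.0712). Calls over all miRNAs in DP vs. LL fell in these fits too, from 186 of 696 to 124 of 689 and 128 of 687. Without DP replicate 3, the log2FC of chi-miR-193b-5p in DP vs. LL was 1.22 (adjusted p = 0.0421). In LL vs. LG the value was 0.95 (SE 0.40, 95% interval 0.07 to 1.83, adjusted p = 0.131).

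chi-miR-365-3p, whose gene lies near those of miR-193 in mammals, was the most abundant member in all 9 libraries. Its level was 43.0, 56.9 and 41.5 CPM in LL, 52.3, 62.4 and 129 CPM in DP, and 72.0, 54.5 and 30.8 CPM in LG. The stages overlapped in every comparison. DP replicate 3 was again the highest library, and LG spread from the lowest library of all to the second highest. In rank by counts, chi-miR-365-3p stood between 131 and 211 of the listed miRNAs, chi-miR-193b-3p between 213 and 353, and chi-miR-193b-5p between 400 and 674.

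The mean of chi-miR-365-3p was 81.2 ± 41.6 CPM in DP, 52.4 ± 20.7 CPM in LG and 47.1 ± 8.53 CPM in LL, an order in which no neighbours differed beyond their spread. Between DP and LG the log2FC of chi-miR-365-3p stood at 0.63 (SE 0.40, 95% interval −0.26 to 1.52, adjusted p = 0.259). It stood at 0.78 (SE 0.40, 95% interval −0.11 to 1.68, adjusted p = 0.164) in DP vs. LL, and at −0.15 (SE 0.40, 95% interval −1.04 to 0.73, adjusted p = 0.859) in LL vs. LG. All of these intervals include 0, and those of DP vs. LG and DP vs. LL also include values above 1. Without DP replicate 3, the value was −0.11 (adjusted p = 0.851) in DP vs. LG and 0.24 (adjusted p = 0.655) in DP vs. LL. No alternative called chi-miR-365-3p in any comparison, and the lowest adjusted p was 0.0569, in DP vs. LL with libraries scaled by size only.

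**Figure D2:**
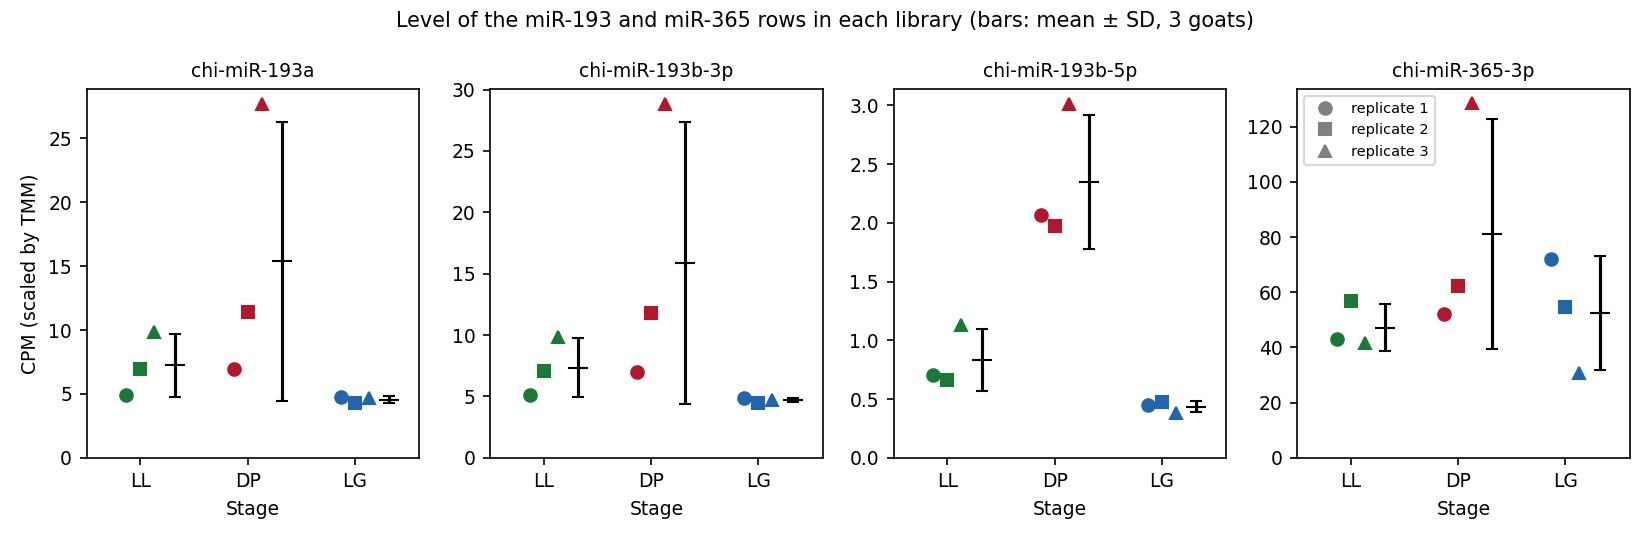
Level of each member in the 9 libraries, in CPM scaled by TMM (linear axes that start at 0 and differ between panels), by stage. Symbols are libraries and bars are the mean ± SD of 3 goats. DP replicate 3 is the highest library in each panel, at 27.7, 28.8, 3.01 and 129 CPM from left to right, and on this scale the stages are apart in every comparison for chi-miR-193b-5p.

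**Figure D3:**
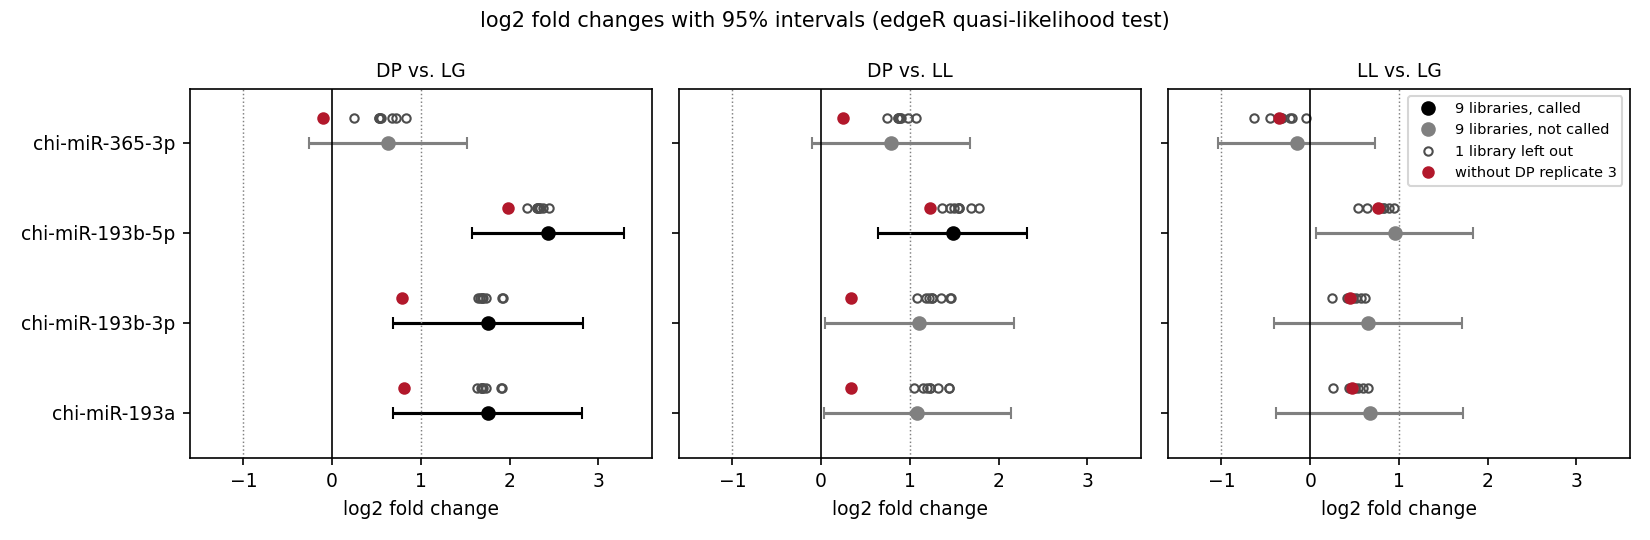
The log2FC values of the members in the 3 comparisons with 95% intervals (black, called; grey, not called; dotted lines at −1 and 1), and above each the values in the 9 fits with 1 library left out (open circles), of which the fit without DP replicate 3 is red. In DP vs. LG the red point of chi-miR-193b-3p is at 0.79 against 1.76 with all libraries, and that of chi-miR-193b-5p at 1.98 against 2.43.

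Ratios between members of 1 library do not depend on how libraries are scaled, and 4 of them were compared over the stages with an exact permutation test (two-sided, F statistic over all 1680 assignments of 9 libraries to 3 stages, adjusted over the 4 ratios). The count of chi-miR-193b-5p was 13.8%, 9.35% and 11.5% of that of chi-miR-193b-3p in LL, 29.7%, 16.8% and 10.4% in DP, and 9.15%, 10.5% and 8.17% in LG. chi-miR-193b-5p thus had fewer counts than chi-miR-193b-3p in every library, although the counts listed for chi-miR-193b-3p are uncertain as those of miR-193b alone. Its share was highest in DP replicates 1 and 2, whereas DP replicate 3 fell among the LL and LG libraries. As log2 ratios, the means were −2.52 ± 0.759 (SD) in DP, −3.08 ± 0.286 in LL and −3.39 ± 0.190 in LG (exact permutation p = 0.0964, adjusted p = 0.243). Without DP replicate 3, the DP library that went against the others, the exact permutation test gave p = 0.00714 (adjusted p = 0.0286), with the ratio highest in DP. Without any other single library, the same test gave adjusted p-values of 0.238 to 0.567.

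chi-miR-365-3p had 8.43, 8.06 and 4.20 times the counts of chi-miR-193b-3p in LL, 7.50, 5.30 and 4.47 times in DP, and 14.8, 12.1 and 6.54 times in LG. LG replicates 1 and 2 had the highest ratios, and replicate 3 the lowest of each stage. The log2 ratio was 3.39 ± 0.612 (SD) in LG, 2.71 ± 0.560 in LL and 2.49 ± 0.378 in DP, and the difference between stages did not pass the threshold (exact permutation p = 0.179, adjusted p = 0.243). The ratio of chi-miR-365-3p to chi-miR-193a, from nearly the same counts, gave an exact permutation p of 0.182 (adjusted p = 0.243). For chi-miR-193b-3p to chi-miR-193a, the log2 ratio was 0.03 in LL, 0.03 in DP and 0.04 in LG, with an exact permutation p of 0.721. Between 2 stages, 3 libraries against 3 cannot give a p below 0.10, and the exact permutation p-values of the 12 pairwise comparisons were between 0.20 and 0.80.

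**Figure D4:**
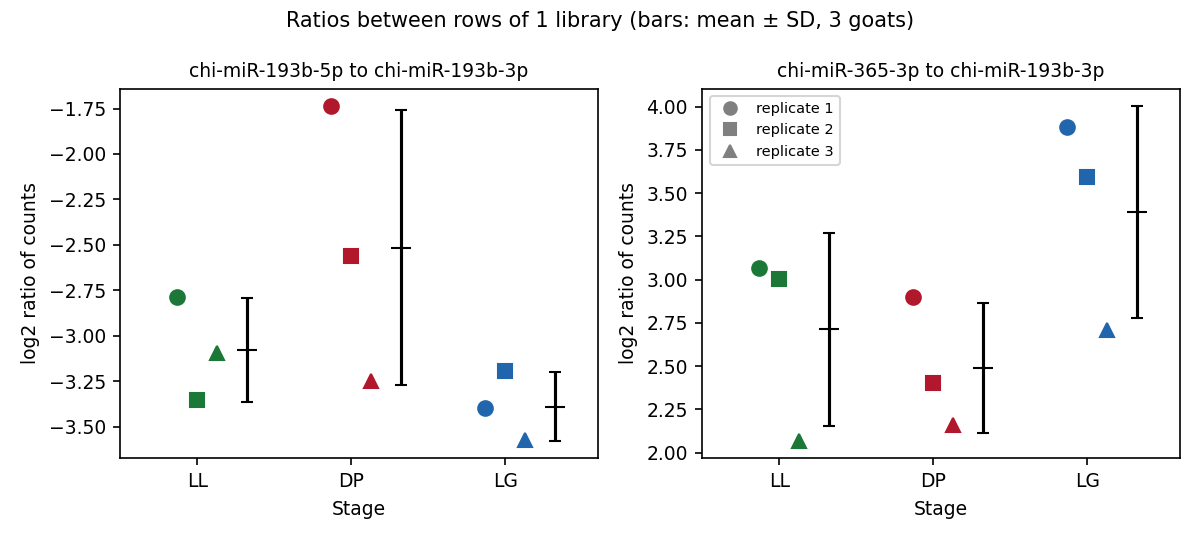
log2 ratio of the counts of chi-miR-193b-5p to chi-miR-193b-3p (left) and of chi-miR-365-3p to chi-miR-193b-3p (right) in each library, with 0.5 added to each count. Symbols are replicates and bars are the mean ± SD of 3 goats. On the left, DP replicate 1 is highest at −1.73 and DP replicate 3 is at −3.25, while on the right LG replicates 1 and 2 are highest at 3.88 and 3.59.

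The scaling of the libraries moved the values of all miRNAs. Over all 696 miRNAs, the median log2FC was 0.18 with TMM and −0.02 by library size only for DP against LG, 0.12 and 0.49 for DP against LL, and 0.17 and −0.42 for LL against LG. Relative to these medians chi-miR-193b-5p stayed higher in DP than in both other stages, with log2FCs of 2.22 (DP vs. LG) and 1.86 (DP vs. LL) by size only. In LL vs. LG, the value of chi-miR-193b-3p was 0.65 with TMM and 0.06 by size only, that of chi-miR-365-3p was −0.15 and −0.69, and that of chi-miR-193b-5p was 0.95 and 0.35. By size only the mean level of chi-miR-193b-3p was 5.91 ± 1.89 CPM in LL and 5.66 ± 0.356 CPM in LG. The miR-193 3p level and chi-miR-193b-5p thus separated LL from LG with TMM and not by size only. This change went with the shift of the median of all 696 from 0.17 to −0.42, so it was not particular to the members.

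DP replicate 3, the library with the highest level of every member, also had the highest summed level of the miRNAs that mark muscle, most of it chi-miR-1. chi-miR-1, a muscle miRNA, had 876, 949 and 3224 CPM in DP replicates 1, 2 and 3, 382, 462 and 357 CPM in LG, and 652, 617 and 816 CPM in LL. The summed level of the 6 listed muscle markers (chi-miR-1, chi-miR-133a-3p, chi-miR-133b, chi-miR-206, chi-miR-208b and chi-miR-499-5p) was 971 to 3445 CPM in DP, 720 to 932 CPM in LL and 419 to 530 CPM in LG, and chi-miR-208b had 0 counts in every library. chi-miR-499-5p did not share this pattern, with 64.0, 56.4 and 44.3 CPM in DP replicates 1, 2 and 3, 44.5, 35.1 and 35.9 CPM in LG, and its highest level, 82.6 CPM, in LL replicate 1. In DP vs. LG, 2 of the 5 tested were called higher and 0 lower, where 21.6% of all 696 were called higher and 9.91% lower. Their median log2FC was 1.72, against 0.18 over all 696. Without DP replicate 3, 1 of the muscle markers was called higher, with a median of 0.40. The part of muscle in the members' levels was not tested. In bulk tissue, more cells of a type cannot be told apart from more of a miRNA per cell.

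The levels of markers of other cell types are given for the same libraries. Epithelial markers, such as chi-miR-200b and chi-miR-200a, summed to 14061 to 22387 CPM in DP, 35327 to 43021 CPM in LL and 34934 to 38645 CPM in LG, with the lowest value of all libraries in DP replicate 3, and none of the 8 found was at 0. Members of the miR-200 family made up most of this sum, while chi-miR-183, chi-miR-182 and chi-miR-96, which are transcribed together, had higher means in DP than in LL and LG (for chi-miR-183, a log2FC of 1.18 with adjusted p = 0.0441 in DP vs. LL). In DP vs. LG, 3 of these 8 were called lower and 0 higher (5 lower by size only), and in DP vs. LL 5 lower and 1 higher (0 lower and 1 higher by size only). Of all 696, 9.91% were called lower and 21.6% higher in DP vs. LG, and 11.6% lower and 15.1% higher in DP vs. LL. Stromal markers, such as chi-miR-143-3p and chi-miR-199a-3p, summed to 52481 to 158436 CPM in DP, with the highest value in DP replicate 3, 79356 to 127754 CPM in LL and 59184 to 67253 CPM in LG, and 4 of 6 were called higher in DP in both comparisons (21.6% and 15.1% of all 696), although without DP replicate 3 it was 3 higher and 2 lower in DP vs. LL. The 2 that were not called, chi-miR-143-3p and chi-miR-145-5p, stood at −0.43 and −0.71 in DP vs. LL. For the 4 immune markers the sums were 1244 to 2398 CPM in DP, 893 to 1265 CPM in LL and 406 to 637 CPM in LG, with DP replicate 3 the lowest of DP. In DP vs. LG 4 were called higher (3 by size only, 21.6% of all 696), and in DP vs. LL 1 (2 by size only, 15.1% of all 696), with both shares from TMM scaling. Blood markers (chi-miR-451-5p and chi-miR-144-3p) summed to 121 to 1279 CPM in DP, 361 to 545 CPM in LL and 85.8 to 165 CPM in LG, with 1 of 2 called higher in DP vs. LG (21.6% of all 696) and 0 in DP vs. LL (15.1% of all 696), although without DP replicate 3 the other one was called lower in both comparisons. The 2 endothelial markers, arms of miR-126, summed to 19030 to 31977 CPM in DP, 15854 to 22982 CPM in LL and 14717 to 16364 CPM in LG, with 1 called higher in DP vs. LG (21.6% of all 696) and 0 by size only. Whether these cell types had a part in the members' levels was not tested.

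Other miRNAs known to act on brown and beige fat, the process for which the cluster of miR-193b and miR-365 is best known, were compared as background for the members. Of 11 others that promote it, 5 were called higher and 2 lower in DP vs. LG, with a median log2FC of 0.95 (0.18 over all 696, of which 21.6% were called higher and 9.91% lower), and 3 higher and 2 lower in DP vs. LL, with a median of 0.71 (0.12 over all, of which 15.1% were called higher and 11.6% lower). Their summed level was 77057, 160707 and 64977 CPM in DP replicates 1, 2 and 3, so DP replicate 2 stood apart here, although every DP library lay above those of LL (48895 to 56703 CPM) and LG (42293 to 43844 CPM). The most abundant were chi-miR-26a-5p and chi-miR-26b-5p, with log2FCs of 1.39 (SE 0.33, adjusted p = 0.00769) and 1.61 (SE 0.33, adjusted p = 0.00351) between DP and LG. The 2 that were lower in DP were both arms of miR-378, a regulator of lipid metabolism (−2.15 for chi-miR-378-3p and −2.04 for chi-miR-378-5p in DP vs. LG). Of 6 that restrain brown fat formation, 2 were called higher and 0 lower in DP vs. LG (median 1.60, or 0.27 without DP replicate 3, with the same counts of calls, where 21.6% of all 696 were called higher), and 1 higher and 0 lower in DP vs. LL, or 4 higher by size only, a scaling that also moved the median of all 696 from 0.12 to 0.49. The most abundant of these, chi-miR-27b-3p, stood at 0.76 (SE 0.33, adjusted p = 0.0918) between DP and LG, and chi-miR-27a-3p had 1.77 (SE 0.41, adjusted p = 0.00720). Counts by size only were 4 higher and 2 lower for the promoting list in DP vs. LG, and 5 higher and 2 lower in DP vs. LL. The lists share chi-miR-182 with the epithelial markers, chi-miR-155-5p with the immune markers and chi-miR-133a-3p and chi-miR-133b with the muscle markers.

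Among the 364 other known miRNAs tested, the patterns most like that of chi-miR-193b-3p over the 9 libraries were those of chi-miR-874-3p, chi-miR-504 and chi-miR-338-5p (Pearson r of log2 CPM of 0.977, 0.964 and 0.956, a description over libraries that share their scaling). The same 3 were most like chi-miR-193a. For chi-miR-193b-5p they were chi-miR-10a-5p, chi-miR-21-5p and chi-miR-125a-5p (r of 0.969, 0.968 and 0.965), so the arms of the hairpin had different nearest patterns. For chi-miR-365-3p the nearest were further off, with r of 0.795 for chi-miR-27b-5p, 0.786 for chi-miR-206 and 0.762 for chi-miR-184. Between members, r was 0.854 for the arms chi-miR-193b-5p and chi-miR-193b-3p, 0.711 for chi-miR-365-3p and chi-miR-193b-3p, and 0.570 for chi-miR-365-3p and chi-miR-193b-5p. DP replicate 3 is high in all of these members and weighs on these values.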

How the data were processed

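Small RNA libraries of mammary tissue were grouped by the stage in the sample labels. After trimming, the authors used miRDeep2 with the ARS1.2 genome, combined miRBase's known goat miRNAs with predicted ones and deposited counts of reads per mature miRNA, without normalization. The submitters' processing notes list FastQC 0.11.9, cutadapt 4.2 and Bowtie 1.1.1. How the authors' counting treated reads that match several miRNAs was not given in the sources used here. The deposited LL replicate 3 column holds expected counts, since 2 miRNAs stand at 209.5, and was rounded. The study's FPKM filter and RUVSeq step were not applied. Mature sequences were not used here.

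The members and lists were chosen with earlier results of these data known. Counts were fitted in edgeR 4.0.16 (R 4.3.3) with TMM and stage as the only term over all 9 libraries. SE is the absolute log2 fold change divided by the square root of F, and intervals use the test's degrees of freedom. Nearly equal means within 10% of the larger count in every library with at least 10 counts. Log2 ratios used counts plus 0.5. Correlations used log2 CPM with a prior count of 2. The named miRNAs are the members, the 3 known miRNAs most correlated with each and, per list, the 2 most abundant. Also named are those chosen after their values were seen (chi-miR-378 arms, all muscle markers, the chi-miR-183 group, the stromal markers not called). Replicates are separate goats. The alternatives covered limma-voom (limma 3.58.1), DESeq2 1.42.0, other scalings and filters, only the 2 stages compared, a replicate block, the miR-193 3p pair summed, and each library left out. Leaving out chi-miR-193a was added after the data were seen. The scripts were tested on simulated data.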

Additional observations from a re-analysis of the deposited data

How the results depend on the processing

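With all libraries, 3 members were called in DP vs. LG and 1 member in DP vs. LL. In DP vs. LG it was 1 without a filter and 1 to 3 in the fits without 1 library, where chi-miR-193b-5p alone was left without DP replicate 3 or any LG library. In DP vs. LL it was 3 by library size only, 0 with at least 10 counts in every library, since chi-miR-193b-5p with 9 counts in LL replicate 1 was then not tested, and 0 to 3 in the fits without 1 library (0 without LL replicate 1 or 2, 3 without DP replicate 1). In LL vs. LG it was 0 in all 20 alternatives. The direction of chi-miR-365-3p in DP vs. LG turned without DP replicate 3, and its log2 fold change over the fits without 1 library was −0.11 to 0.84. Other causes of these moves were not tested.

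The deviations of same-numbered libraries had mostly positive correlations (−0.10 to 0.21), not all above 0.10, and no label ties the numbers to a shared goat or batch, so they were not taken as pairs. The replicate block changed no call of a member in the 3 comparisons. For the ratios, the mean of each replicate number was subtracted before the permutation test. This gave an adjusted p of 0.0214 for chi-miR-365-3p to chi-miR-193b-3p and to chi-miR-193a. The assignments were not kept within replicate numbers, so that p is not exact for a blocked design, and no conclusion is drawn from it. The adjusted p of the ratio of chi-miR-193b-5p to chi-miR-193b-3p was 0.0286 to 0.567 without 1 library, and the lowest value was that without DP replicate 3. DESeq2 and limma-voom called as many members as edgeR in each comparison. Depth limits chi-miR-193b-5p most, with 9 to 69 counts per library.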
